A study of Mus musculus with 6 samples.

Results

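The genes described here encode macrophage enzymes that make itaconate, nitric oxide and superoxide, with the enzymes that feed or compete for their substrates: Acod1, Nos2, Arg1, Arg2, Ass1, Gch1, Cybb, Cyba and Ncf1. They were taken by symbol from the platform annotation of the arrays, each gene being represented by its probe set of highest mean over the 6 arrays. Of the 9 genes, 7 had a probe set that lists that gene alone, among 18820 genes tested in all. Arg2 and Ass1 are listed only together with another gene, Vti1b for Arg2 and Gm5424 for Ass1, so those probe sets are described as shared and counted with neither gene.

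RNA came from bone marrow-derived macrophages, 3 samples from mice with a macrophage knockout of GPS2 (GPS2KO) and 3 from wild-type mice (WT), with 1 Affymetrix array per sample. All mice were male and about 12 to 16 weeks old, and their marrow was grown into macrophages over 7 days with 30% of L929-conditioned medium, a source of macrophage growth factor, without any stimulus. GPS2 is a subunit of the nuclear co-repressor complex that holds HDAC3. The labels give neither the deleted exons, the Cre driver nor the strain. Nor do they say whether the arrays of a group came from different mice, and the spread behind the p-values may therefore be technical.

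Activated macrophages make several small molecules that act on microbes and on the cells' own metabolism. Acod1 (also called Irg1) sits in mitochondria and makes itaconate from cis-aconitate of the citrate cycle, Nos2 makes nitric oxide from arginine, and the phagocyte NADPH oxidase pumps electrons onto oxygen to make superoxide. Nos2 needs tetrahydrobiopterin, whose synthesis starts with Gch1, and arginine, which Ass1 helps to rebuild from citrulline and which the arginases Arg1 and Arg2 break down. Acod1, Nos2 and Gch1 are known to be induced in mouse macrophages by interferons and by ligands of Toll-like receptors, whereas the oxidase subunits are made by resting phagocytes as well.

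As a check of the labels, Gps2 had log2 signals of 10.289, 10.164 and 10.187 on the GPS2KO arrays, against 10.943, 10.931 and 11.002 on the WT arrays, and fell by 0.75 on the log2 scale (limma adjusted p = 0.000256), which left 59.7% of the WT signal. All 8 macrophage markers tested (Adgre1, Csf1r, Cd68, Mertk, Fcgr1, Itgam, Cd14 and Lyz2) lay above the limit for dim signals in both groups, and their linear signals summed to 43224 to 43373 on the GPS2KO arrays, against 41434 to 42704 on the WT arrays. Of them Mertk, a receptor for dying cells, rose by 0.24 (limma adjusted p = 0.00991) and the integrin chain Itgam by 0.19 (adjusted p = 0.0279). Itgam did not pass with any 1 array left out (adjusted p 0.0557 to 0.1). The limit for dim signals, 5.49 on the log2 scale, is the 40th percentile of the gene means, and background compresses the fold changes of signals under it. Over all genes 545 rose (2.9%) and 720 fell (3.83%), and after centring each array on its median these counts were 460 and 1061. Array medians lay between 5.565 and 5.597.

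In GPS2KO macrophages Acod1 and Gch1 fell, 2.30-fold and 1.35-fold. The probe sets shared by Ass1 and its pseudogene fell as well, by 1.72-fold and 1.74-fold. The oxidase subunits Cybb, Cyba and Ncf1 differed by at most 0.06 on the log2 scale, and Nos2 and Arg1 were dim in both groups and did not pass the test. Of the 7 genes with their own probe set, 2 fell, 0 rose and 5 did not pass (limma with Benjamini-Hochberg adjustment over all tested genes, threshold 0.05). Over all tested genes 6.72% passed, 3.83% by falling and 2.9% by rising. At an unadjusted p under 0.05, 3 of the 7 were lower and 0 higher, where 20.8% of all genes had such a p, 11.9% lower and 8.88% higher. With a variance trend in limma 2 fell and 0 rose, where 11.6% of all genes passed, 6.63% by falling and 4.92% by rising. The median change of the 7 genes was -0.07, and that of all tested genes was -0.01. Values on the GPS2KO and WT arrays did not overlap for 4 of the 7, with GPS2KO lower for 3 and higher for 1. They did not overlap for 27.1% of all genes, with GPS2KO lower for 15.2% and higher for 11.9%.

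**Figure D1:**
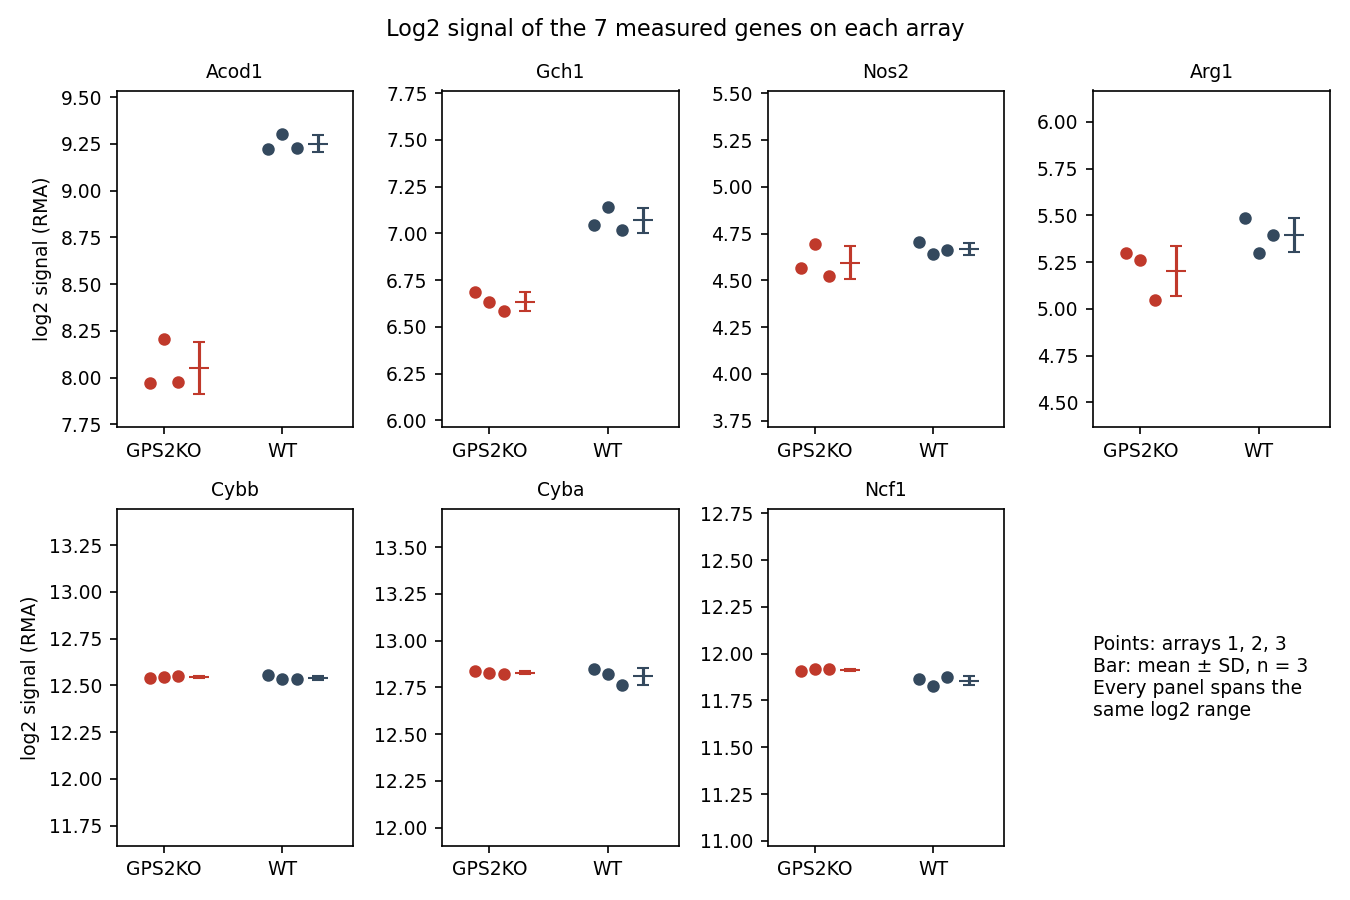
Log2 signal (RMA) of the 7 measured genes on each array, GPS2KO left and WT right; points are arrays, bars are mean ± SD (n = 3), and each panel has its own axis of the same length, 1.8 log2 units. The GPS2KO arrays lie well below the WT arrays for Acod1 and Gch1, while the points of Cybb, Cyba and Ncf1 lie nearly level.

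Upstream sequences of 4 of these genes are shown to set a pair that fell beside a pair that did not pass. RefSeq on build GRCm38.p6 gave a start and its upstream sequence for 6 of the 9 genes. The 250 bases before the start lie at chr14:103046762-103047011 on the plus strand for Acod1, chr14:47189414-47189663 on the minus strand for Gch1, chrX:9469325-9469574 on the minus strand for Cybb and chr5:134229626-134229875 on the minus strand for Ncf1. The Cybb start used there lies 18442 bases inside the span that RefSeq gives the gene, so that window precedes an internal start, and the outer start was not searched. The Ncf1 start lies 3 bases inside the span of its gene. Capitals mark matches, on either strand, to 5 motifs: the interferon response element GAAANNGAAA, the gamma-activated site TTCNNNGAA, the NF-kappaB consensus, the TATA box TATAAA and the PU.1 core GAGGAA.
Acod1: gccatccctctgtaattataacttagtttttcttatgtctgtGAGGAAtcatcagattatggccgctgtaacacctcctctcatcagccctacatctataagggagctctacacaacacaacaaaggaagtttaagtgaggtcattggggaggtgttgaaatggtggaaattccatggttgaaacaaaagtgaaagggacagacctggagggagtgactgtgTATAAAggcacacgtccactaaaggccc
Gch1: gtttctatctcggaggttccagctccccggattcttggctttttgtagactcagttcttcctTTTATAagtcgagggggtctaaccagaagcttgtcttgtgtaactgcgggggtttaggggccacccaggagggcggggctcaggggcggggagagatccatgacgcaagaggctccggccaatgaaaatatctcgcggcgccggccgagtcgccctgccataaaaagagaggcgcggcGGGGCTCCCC
Cybb: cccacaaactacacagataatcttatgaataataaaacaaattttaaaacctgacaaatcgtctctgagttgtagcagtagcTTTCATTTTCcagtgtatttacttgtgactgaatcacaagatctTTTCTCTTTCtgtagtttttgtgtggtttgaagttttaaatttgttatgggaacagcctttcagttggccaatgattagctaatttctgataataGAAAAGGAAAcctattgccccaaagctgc
Ncf1: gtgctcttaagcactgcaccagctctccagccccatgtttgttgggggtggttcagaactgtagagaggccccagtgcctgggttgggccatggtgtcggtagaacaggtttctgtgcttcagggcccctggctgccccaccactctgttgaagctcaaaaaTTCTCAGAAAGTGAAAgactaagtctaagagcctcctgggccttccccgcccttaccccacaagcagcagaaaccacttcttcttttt
The Acod1 window held a TATA box, 28 to 23 bases before the start, and a PU.1 core, 208 to 203 bases before it. The Gch1 window held a match to the NF-kappaB consensus directly before the start and TATAAA on the opposite strand. GAAANNGAAA occurred in neither of these, but at 3 places in the Cybb window and at 1 in the Ncf1 window, where it overlaps TTCNNNGAA. The windows of Ass1 and Cyba, not shown, held none of the 5 motifs, so GAAANNGAAA was also missing from Cyba, which did not pass. Only exact matches were searched, and near matches are unmarked. Among 32851 upstream windows of the same length, 2.98% held GAAANNGAAA, 7.02% TTCNNNGAA, 3.9% the NF-kappaB consensus, 12.4% TATAAA and 23.3% GAGGAA. These matches describe the letters of a short window and were not tested as binding sites.

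Acod1, measured by probe set 10416837, makes itaconate. Its log2 signal was 7.97, 8.21 and 7.98 on the GPS2KO arrays, against 9.22, 9.30 and 9.23 on the WT arrays. Every GPS2KO array lay below every WT array, as for 15.2% of all genes. A gap of 1.01 log2 units separated the highest GPS2KO array from the lowest WT array. The means were 8.05 ± 0.14 in GPS2KO and 9.25 ± 0.04 in WT (SD, n = 3 each). Acod1 fell by 1.20 on the log2 scale (SE 0.0694, 95% confidence interval -1.36 to -1.04, limma adjusted p = 0.000189), which left 43.5% of the WT signal, with an interval of 38.9% to 48.7%. Acod1 had rank 8 among the falls of all tested genes. GPS2KO replicate 2 was the highest of its group, and without it Acod1 fell by 1.28. In bulk RNA, fewer cells that express a gene and less RNA per cell cannot be told apart.

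The enzymes around itaconate gave small changes beside that of Acod1. Of 28 genes of the citrate cycle and of itaconate export and breakdown, 0 passed in limma, beside 6.72% of all genes. At an unadjusted p under 0.05 there were 2 higher and 4 lower, a share near the 20.8% of all genes. With a variance trend 4 passed, against 11.6% of all genes, Idh1 and Dld by rising and Sdhb and Sdhc by falling, named here after their values were seen. The smallest p belonged to Idh1, which makes 2-oxoglutarate outside mitochondria (0.16, limma adjusted p = 0.0548), and to Sdhc, a membrane anchor of succinate dehydrogenase (-0.14, adjusted p = 0.0948). Changes in this list ran from -0.16 to 0.16 on the log2 scale, with a median of -0.03.

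Gch1, the first enzyme of tetrahydrobiopterin synthesis, was measured by probe set 10419288. It had log2 signals of 6.69, 6.64 and 6.59 on the GPS2KO arrays and 7.05, 7.14 and 7.02 on the WT arrays. The GPS2KO arrays all lay below the WT arrays, as for 15.2% of all genes, with a gap of 0.33. It averaged 6.64 ± 0.05 in GPS2KO and 7.07 ± 0.07 in WT (SD, n = 3 each), a fall of 0.43 (SE 0.049, 95% confidence interval -0.55 to -0.32, limma adjusted p = 0.00241) to 74.1% of WT. Its fall was smaller than that of Acod1 by 0.77 on the log2 scale. An exact 2-sided permutation test over the arrays gave p = 0.1 for that difference, the smallest that 20 arrangements allow. It could therefore not fall under 0.05, and this comparison was not among those planned. The 95% confidence intervals of the 2 changes did not overlap, which is no test of their difference.

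Nos2, the inducible nitric oxide synthase that uses this cofactor, was dim on all arrays (probe set 10379228). Its log2 signal was 4.57, 4.69 and 4.53 in GPS2KO, against 4.70, 4.64 and 4.66 in WT. The groups overlapped, and the change was -0.07 (95% confidence interval -0.20 to 0.05, limma adjusted p = 0.485). At such a signal no difference in Nos2 was detectable between these unstimulated cultures, which does not show that there was none.

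Ass1, argininosuccinate synthase, is represented only through probe sets 10363541 and 10471154. Both also list Gm5424, which RefSeq describes as a transcribed pseudogene, and the array cannot assign their signal to either. On the first, log2 signals were 9.20, 9.06 and 9.10 in GPS2KO, against 9.94, 9.94 and 9.82 in WT. On the second they were 9.10, 8.92 and 8.98 in GPS2KO, against 9.83, 9.82 and 9.74 in WT. Every GPS2KO array was below every WT array on both, as for 15.2% of the 18820 genes tested. In a fit over all 23099 listed probe sets, of which 5.5% passed, the changes were -0.78 (SE 0.0543) and -0.80 (SE 0.0552), each with a limma adjusted p of 0.000528. The 2 values are not independent, since both probe sets list the same genes.

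**Figure D2:**
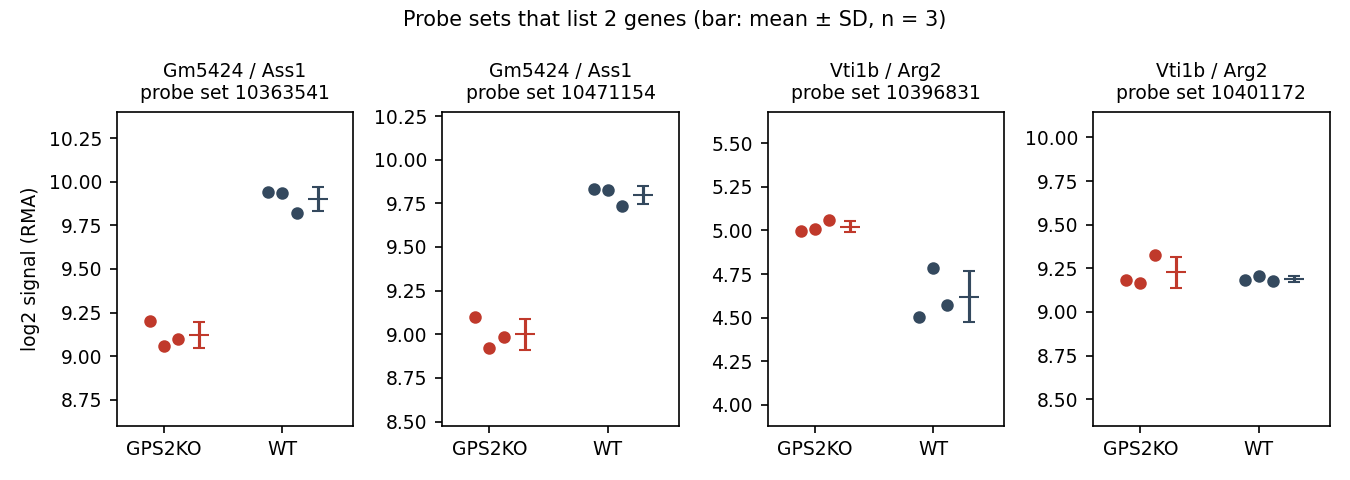
Log2 signal (RMA) on each array of the 4 probe sets that list Ass1 or Arg2 together with another gene, GPS2KO left and WT right (bars: mean ± SD, n = 3). Both Gm5424 / Ass1 probe sets are lower in GPS2KO, and the Vti1b / Arg2 probe sets differ from each other in level and in change.

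In the rest of the nitric oxide pathway changes ran from -0.20 to 0.18 on the log2 scale. Of 20 other genes of nitric oxide, arginine uptake and tetrahydrobiopterin, 0 passed in limma, beside 6.72% of all genes. At an unadjusted p under 0.05 there were 2 higher and 6 lower, beside 8.88% and 11.9% of all genes. With a variance trend, under which 6.63% of all genes fell, 5 of the 20 fell: Spr, which completes tetrahydrobiopterin, Slc7a1, an arginine importer, Ddah1, which degrades methylated arginine that inhibits the synthases, Nosip, a partner of endothelial nitric oxide synthase, and Calm3, a calmodulin gene. All 5 were small changes, from -0.20 to -0.10. The smallest p in limma belonged to Ddah1 (-0.15, adjusted p = 0.0631) and Nosip (-0.20, adjusted p = 0.0677). The list median was -0.04.

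Arg1, the cytosolic arginase of alternatively activated mouse macrophages, was dim in both groups (probe set 10368343). Its log2 signal was 5.30, 5.26 and 5.05 in GPS2KO, against 5.49, 5.30 and 5.40 in WT. The groups were apart by only 0.000963, the gap between GPS2KO replicate 1 and WT replicate 2. The change was -0.19 (SE 0.0771, 95% confidence interval -0.37 to -0.01), which did not pass (limma adjusted p = 0.211).

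Arg2, the mitochondrial arginase, shares both of its probe sets with Vti1b, a vesicle fusion protein whose gene overlaps the end of Arg2 in RefSeq. Probe set 10396831 was dim, with log2 signals of 4.996, 5.010 and 5.058 in GPS2KO, against 4.505, 4.784 and 4.572 in WT. It rose by 0.40 (SE 0.0721, limma adjusted p = 0.0211). That call ended without any 1 array except WT replicate 2, at adjusted p from 0.0596 to 0.0821. Probe set 10401172 had 9.18, 9.17 and 9.33 in GPS2KO, against 9.18, 9.21 and 9.18 in WT, and its change of 0.04 did not pass (adjusted p = 0.739). With unlike results from probe sets that list the same pair of genes, the symbols of the annotation assign no change to Arg2 or to Vti1b. The strand and position of the probes were not used.

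Among 17 further genes of arginine and polyamine metabolism, 1 rose, 2 fell and 14 did not pass. The share that passed was 17.6%, beside 6.72% of all genes. With a variance trend 1 rose and 3 fell, beside 4.92% and 6.63% of all genes. The added fall was Smox (-0.17, limma adjusted p = 0.00357 with that trend, 0.0569 without it). Sat1, which acetylates spermidine and spermine for export or breakdown, had log2 signals of 11.29, 11.29 and 11.37 in GPS2KO, against 10.97, 11.02 and 10.99 in WT, and rose by 0.33 (limma adjusted p = 0.0033). Azin2, an antizyme inhibitor that promotes polyamine synthesis, fell by 0.39 (adjusted p = 0.00608). Aldh18a1, which starts proline and ornithine synthesis from glutamate, fell by 0.33 (adjusted p = 0.0221). The Aldh18a1 call ended without any 1 of the GPS2KO arrays or without WT replicate 2, at adjusted p from 0.0512 to 0.0796.

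**Figure D3:**
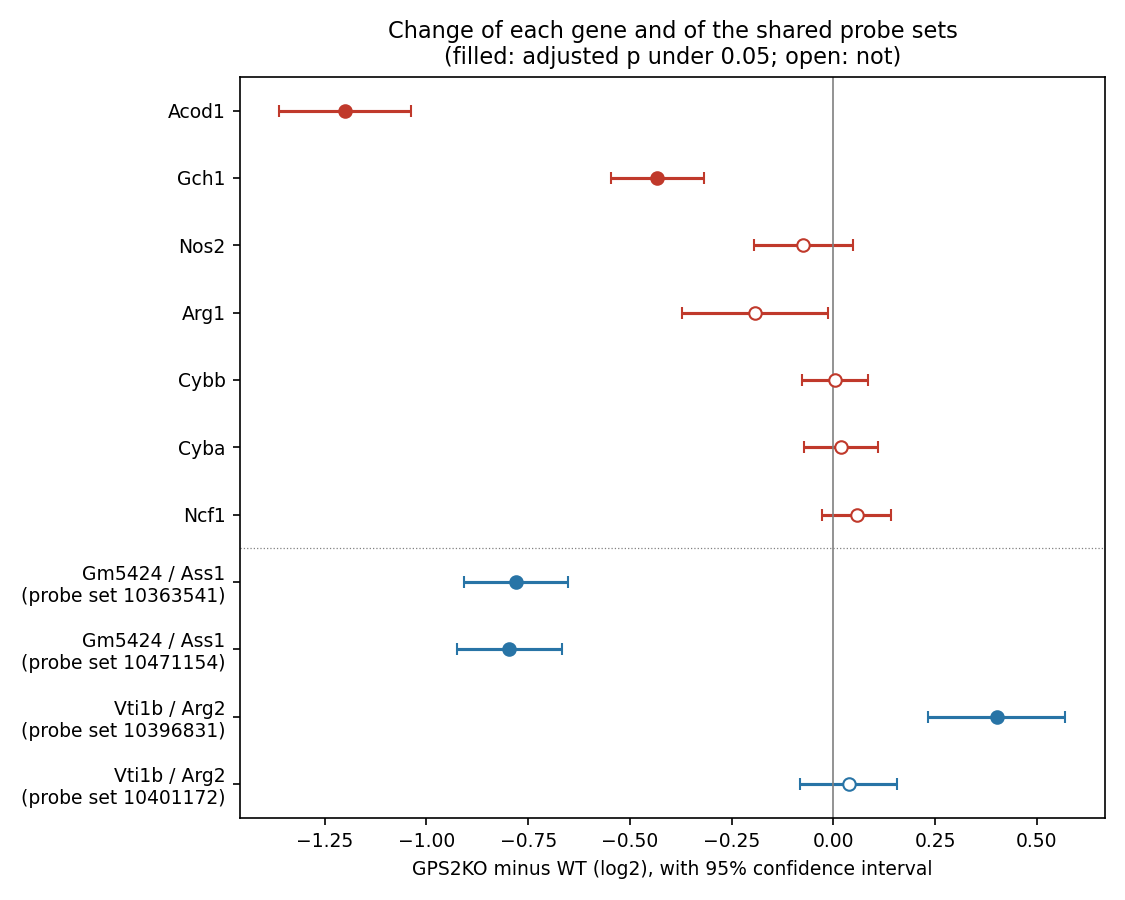
Log2 change (GPS2KO minus WT) of each gene with its 95% confidence interval from limma; filled points passed the adjusted threshold of 0.05 and open points did not, and the lower rows are the shared probe sets. Acod1, the Gm5424 / Ass1 probe sets and Gch1 lie left of 0, and the intervals of the oxidase subunits span 0.

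The phagocyte NADPH oxidase is built on a membrane pair, Cybb (gp91phox, which carries the electrons) and Cyba (p22phox, its stabilising partner), which the cytosolic subunit Ncf1 (p47phox) joins after activation. Cybb, probe set 10603551, had log2 signals of 12.54, 12.54 and 12.55 on the GPS2KO arrays, against 12.55, 12.53 and 12.53 on the WT arrays. All 6 arrays lay within 0.0226 of each other. The change was 0.00396 (95% confidence interval -0.08 to 0.09, limma adjusted p = 0.966), so that the interval reached from 94.8% to 106.1% of WT.

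Cyba, probe set 10582303, had 12.84, 12.83 and 12.82 in GPS2KO, against 12.85, 12.82 and 12.76 in WT on the log2 scale. The groups overlapped. The change was 0.02 (95% confidence interval -0.07 to 0.11, limma adjusted p = 0.837), which allows 95.1% to 108.0% of WT. Ncf1, probe set 10534202, had 11.91, 11.92 and 11.92 in GPS2KO, against 11.86, 11.83 and 11.88 in WT. Its GPS2KO arrays were all higher than its WT arrays, as for 11.9% of all genes, but the change of 0.06 did not pass (95% confidence interval -0.03 to 0.14, adjusted p = 0.434). The upper bound for Ncf1 was 110.3% of WT.

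Of 15 other genes of the NADPH oxidases and their control, 1 rose, 1 fell and 13 did not pass. The share that passed was 13.3%, beside 6.72% of all genes. With a variance trend 1 rose and 2 fell, beside 4.92% and 6.63% of all genes. The added fall was Ncf4 (-0.12, limma adjusted p = 0.0153 with that trend, 0.115 without it). Vav3, an exchange factor that activates Rac, had log2 signals of 9.65, 9.79 and 9.73 in GPS2KO, against 9.37, 9.33 and 9.35 in WT, and rose by 0.37 (limma adjusted p = 0.00368). Nox1, the catalytic oxidase of colon epithelium, had 5.30, 5.52 and 5.30 in GPS2KO, against 5.78, 6.06 and 6.19 in WT. It fell by 0.63 (adjusted p = 0.0136), with a GPS2KO mean among the dim signals. Its call ended without GPS2KO replicate 1, GPS2KO replicate 3 or WT replicate 2, at adjusted p from 0.0527 to 0.053.

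**Figure D4:**
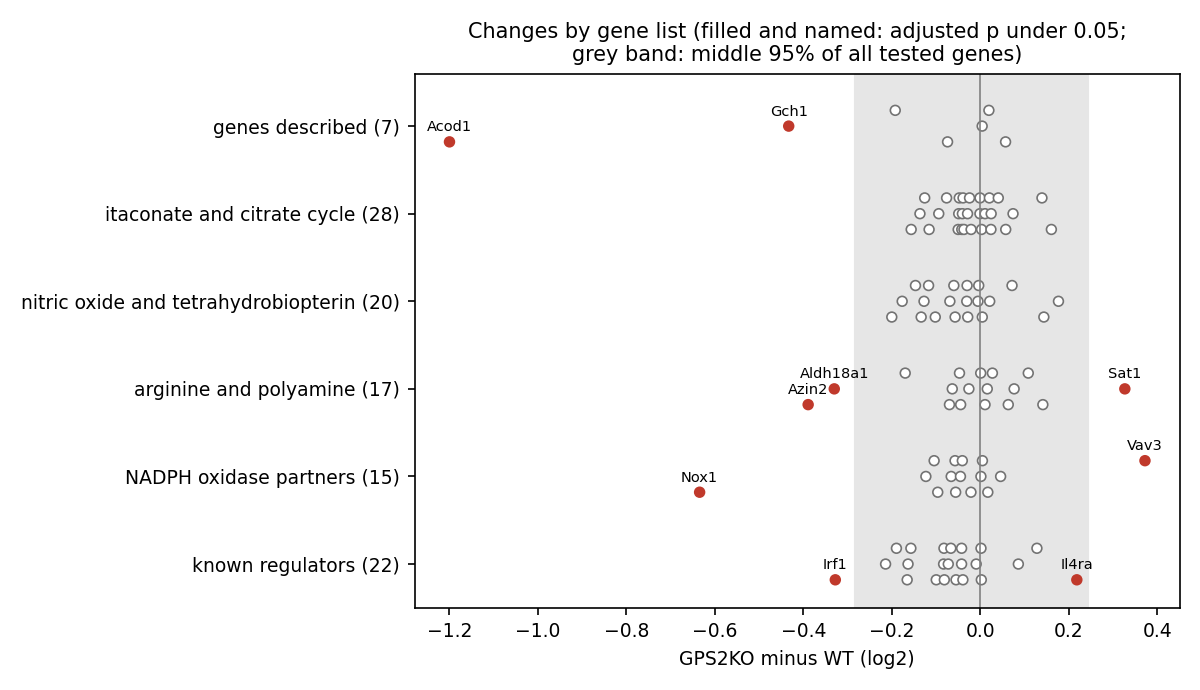
Change of every tested gene in each list, GPS2KO minus WT on the log2 scale; filled and named points passed the adjusted threshold, and the grey band holds the middle 95% of all tested genes, from -0.28 to 0.24. Acod1 lies farthest from 0, and nearly all oxidase, nitric oxide and citrate cycle genes lie within the band.

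Among 22 signalling proteins and transcription factors known to act on these genes, 1 rose, 1 fell and 20 did not pass. The share that passed was 9.09%, near the 6.72% of all genes. Irf1, an interferon-induced factor that activates Nos2, had log2 signals of 8.93, 8.94 and 8.92 in GPS2KO, against 9.34, 9.26 and 9.16 in WT. It fell by 0.33 (limma adjusted p = 0.00953), and every GPS2KO array was lower than every WT array, as for 15.2% of all genes. Il4ra, the receptor chain through which interleukin 4 induces Arg1, rose by 0.22 (adjusted p = 0.0224). That call ended without any 1 array except WT replicate 3, at adjusted p from 0.0609 to 0.0858. The median of the list was -0.07, and with a variance trend 6 of its genes fell and 1 rose, beside 6.63% and 4.92% of all genes.

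For each gene that fell, the 3 other tested genes with the most alike profile over the 6 arrays were taken. Likeness was the root-mean-square difference between log2 profiles centred on their own means, given without a test. Such a search returns genes of like change by its construction. Closest to Acod1 were Cd69, a lectin of activated leukocytes (0.102), Clec4e, the receptor Mincle (0.118), and Gbgt1, a glycolipid synthase (0.121). Their changes were -1.05, -1.05 and -1.27 on the log2 scale, and Cd69 had a GPS2KO mean among the dim signals. Closest to Gch1 were Raet1e, a ligand of the receptor NKG2D (0.0246), Usp2, a deubiquitinase (0.0337), and Gpr84, a receptor for medium-chain fatty acids (0.0348), with changes of -0.42, -0.37 and -0.44.

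Acod1 and Gch1 both lie on chromosome 14 but are not neighbours. Of the tested genes on either side of Acod1, Kctd12, a subunit of the receptor for gamma-aminobutyric acid, rose by 0.39 (limma adjusted p = 0.00244), and Lmo7, Mycbp2 and Scel differed by 0.01, 0.03 and 0.03 and did not pass. Beside Gch1, Wdhd1, a replication factor, rose by 0.18 (adjusted p = 0.0343). Wdhd1 lost that call whichever array was left out, and after median centring, at adjusted p from 0.0544 to 0.12. The other neighbours of Gch1, Cgrrf1, Samd4 and Socs4, did not pass, with changes of 0.03, -0.10 and 0.07. Of these 8 neighbours 0 fell in limma, also with a variance trend, and 0 were lower at an unadjusted p under 0.05. Over all genes these shares were 3.83%, 6.63% and 11.9%. Kctd12 and Wdhd1 were the rises among the 8 in limma, where 2.9% of all genes rose.

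Marker genes of further cell types from marrow were summed as linear signal on each array. Beside the counts below, 2.9% of all tested genes rose and 3.83% fell. Of 9 neutrophil markers 2 rose, Mmp8 and Ngp, and the sum was 936 to 996 on the GPS2KO arrays, against 611 to 679 on the WT arrays. Most of that difference was Mmp8. In a sum added after its value was seen, the other 8 came to 304 to 338 in GPS2KO and 285 to 304 in WT, with 4 means higher and 4 lower in GPS2KO. In both groups 6 of the 9 were dim, among them Camp, Elane, Ltf and Mpo. Of 8 fibroblast markers 2 fell, Col1a1 and Pdgfrb, and 1 rose, Dcn, with a sum of 13591 to 13775 in GPS2KO and 14800 to 15295 in WT. Only 1 of these 8, Lum, was dim in both groups. Of 6 endothelial markers 1 rose, Cdh5, with a sum of 575 to 615 in GPS2KO and 510 to 566 in WT. Of 8 dendritic cell markers 6 were dim, with a sum of 240 to 250 in GPS2KO and 247 to 253 in WT. All 7 tested lymphocyte markers were dim, Ifng included, and summed to 158 to 166 in GPS2KO and 165 to 170 in WT. In limma 0 markers of these last 2 lists passed, also with a variance trend, and 0 had an unadjusted p under 0.05. Of the 6 marker genes named here, Mmp8 and Pdgfrb kept their calls with any 1 array left out. Ngp lost its call without GPS2KO replicates 1 or 2 or WT replicates 2 or 3 (adjusted p 0.052 to 0.0617), and Col1a1 without any array but WT replicate 1 (0.0718 to 0.0796). Dcn lost it without GPS2KO replicates 1 or 2 or WT replicates 1 or 2 (0.0792 to 0.115), and Cdh5 without GPS2KO replicates 1 or 2 or WT replicates 1 or 3 (0.0832 to 0.101). The neutrophil, fibroblast, endothelial and macrophage sums differed between the groups without overlap. Without Mmp8 the neutrophil sums came as close as 304 in both groups. Acod1, Gch1 and the probe sets shared by Ass1 did not overlap either, where 27.1% of all genes did not. The part of the marked cell types in those results was not tested.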

How the data were processed

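The deposited table held log2 intensities, 1 value for each of 35556 probe sets on each of 6 arrays. The submitters' processing notes name RMA and the package oligo as the tools by which the authors obtained them, with version and build not given in the sources used here. RMA equalises the arrays, which hides any shift common to most genes, and the deposited values come without detection calls. That they are log2 was inferred from their range, 2.42 to 14.0.

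GEO's platform annotation listed 23099 probe sets, 21218 of them with 1 gene symbol and 1881 with several; the other 12457 are unnamed here. Genes with several probe sets, 1386 in all, took the one of highest mean, which left 18820 genes. Changes are GPS2KO minus WT, tested with limma 3.58.1 in R 4.3.3 with group as the only term, 2-sided, with Benjamini-Hochberg adjustment over all tested genes and a threshold of 0.05. The calculation was tested on simulated data. Shared probe sets were fitted over all listed probe sets, a step added after their values were seen. Precision is limited by the number of arrays, 3 per group.

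The genes and lists were chosen with earlier results of these data known. Named with values were all 9 genes, Gps2, up to 6 list genes past the threshold or else the 2 of smallest p, the 3 nearest profiles and the 2 neighbours on each side of each gene that passed. Samples that share a replicate number did not deviate together (correlations 0.00348, 0.0258 and -0.00604), so they were not treated as pairs, and the labels give no batch. Alternatives were quantile normalization, median centring, a variance trend, no dim genes, every probe set, a replicate block and leaving out each array.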

Additional observations from a re-analysis of the deposited data

How the results depend on the processing

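Acod1 and Gch1 fell under all 12 alternatives, and 0 of the 7 genes rose under any. The change of Acod1 ran from -1.28 to -1.16 (limma adjusted p at most 0.00187) and that of Gch1 from -0.46 to -0.40 (at most 0.0143). The other 5 genes passed under none of the alternatives that could be run, which for the dim Nos2 and Arg1 leave out the filter on dim genes. Their lowest adjusted p was 0.239 for Nos2, 0.153 for Arg1, 0.797 for Cybb, 0.706 for Cyba and 0.155 for Ncf1. Cybb and Cyba were slightly below 0 after quantile normalization and median centring, down to -0.02. Both Gm5424 / Ass1 probe sets passed under all 10 alternatives run on them, which were chosen after seeing the data.

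The number of genes past the threshold, 1265, was 2174 with a variance trend (926 rose, 1248 fell) and 1962 without dim genes (1154 fell). Leaving out 1 array gave 749 to 842 genes, of which 322 to 376 rose and 419 to 503 fell. Rises were 43.1% of the calls, and 30.2% after median centring. With the replicate block 862 genes passed (370 rose, 492 fell), Acod1 had adjusted p = 0.00103 and Gch1 0.0104, and Il4ra (0.0643), Wdhd1 (0.0885), Itgam (0.0722), Col1a1 (0.0657), Dcn (0.0799) and Cdh5 (0.0747) lost their calls. The cause of these shifts was not tested. Nos2 and Arg1 lay under the dim limit, where background compresses fold changes.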
